A study of Homo sapiens and Mus musculus with 10 samples.

Results

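The genes described here are the 10 SOX genes SOX4, SOX11 and SOX12 of group C, SOX5, SOX6 and SOX13 of group D, SOX8, SOX9 and SOX10 of group E, and SOX18 of group F. They were taken by name from the 19970 protein-coding genes on the autosomes and X of GENCODE release 44. Accessible chromatin at them was read from ATAC-seq peak lists of 4 human lines with 2 replicates each. ATAC-seq marks open chromatin where the transposase Tn5 inserts sequencing adapters. GM12878 is a B-lymphoblastoid line immortalised with Epstein-Barr virus, HEK293T derives from embryonic kidney and expresses large T antigen of the virus SV40, HFF1 is a foreskin fibroblast line, and K562 is an erythroleukaemia line. The mouse orthologues were read in 2 libraries of mouse embryonic stem cells (mESC) grown with leukaemia inhibitory factor and without feeder cells. No group carried a treatment, and each line stands for 1 established culture line rather than for a tissue.

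SOX proteins bind DNA through an HMG box, which recognises short sequences such as AACAAT and ACAAAG in the minor groove and bends the helix. The letter groups follow similarity of the protein. Group C proteins act as activators in progenitor cells, group D proteins have no activation domain of their own and work beside others, group E proteins direct cartilage, testis, neural crest and glial fates, and SOX18 of group F acts in blood and lymphatic endothelium. In erythroid cells SOX6 is known as a repressor of embryonic and fetal globin genes.

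A start-site peak here reaches within 1 kb of any annotated start of the gene, and a gene counts as called in a line when both replicates have such a peak. The lists hold only peaks past the authors' threshold, and a gene without one fell short of it at the depth of that library. The 8 human lists held 52137 to 127359 peaks. HEK293T was the shallowest line, with a background level of 0.465 and 0.466 reads per window against 1.71 to 2.43 in the other 6 libraries. Start sites of the marker genes followed the labels: all 4 GM12878 markers, 4 of 4 HFF1 markers, 4 of 4 HEK293T markers and 3 of 4 K562 markers were called in their own line, and HBG1 of the K562 list was not. ACTB and GAPDH were called in all 4 lines.

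Sequences of 2 start sites show the range among these genes. RefSeq promoter entries on GRCh38.p14 matched SOX4, SOX12, SOX5, SOX6 and SOX13, and SOX8, SOX9, SOX10, SOX11 and SOX18 had no entry. The SOX12 promoter, which belongs to a gene called in all 4 lines, held 42 CpG dinucleotides in 250 bases. An internal SOX6 start site, called only in K562, held 0. The first SOX6 promoter held 17, the SOX5 promoter 27, the SOX4 promoter 8, and the median of 35116 human entries was 11. The SOX13 promoter, at a start called in all 4 lines, also held 8. The other internal SOX6 entries, at starts called in no line, held 0 to 2. Capitals mark CpG, and bases inside annotated exons were left out of the internal SOX6 entry.
SOX12 promoter, chr20:325302-325551, plus strand: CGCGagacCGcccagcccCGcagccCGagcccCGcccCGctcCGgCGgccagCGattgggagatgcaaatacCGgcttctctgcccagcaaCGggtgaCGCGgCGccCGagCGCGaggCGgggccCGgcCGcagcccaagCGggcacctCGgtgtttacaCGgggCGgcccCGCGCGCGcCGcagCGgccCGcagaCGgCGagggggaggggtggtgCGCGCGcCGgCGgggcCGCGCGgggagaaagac
SOX6 internal start, chr11:16408885-16409106, minus strand: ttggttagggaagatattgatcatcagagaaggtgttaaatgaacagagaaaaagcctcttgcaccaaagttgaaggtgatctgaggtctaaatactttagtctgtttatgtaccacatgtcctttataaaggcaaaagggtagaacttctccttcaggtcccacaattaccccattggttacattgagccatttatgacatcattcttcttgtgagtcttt

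Start-site peaks were found in both replicates for 7 of the 10 genes in GM12878, where 71.9% of all protein-coding genes had one. The count was 6 in HEK293T (67.8% of all genes), 7 in HFF1 (76.2%) and 5 in K562 (70.4%). SOX12, SOX5, SOX6 and SOX13 were called in all 4 lines, against 59.7% of all genes, and SOX8 and SOX10 in none, against 17.1%. These counts lay near or below the shares of all genes. The fold printed below is the authors' ratio of the summit to the local background of the same library. It depends on depth and is given to describe each peak, so its size was not compared between lines.

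**Figure D1:**
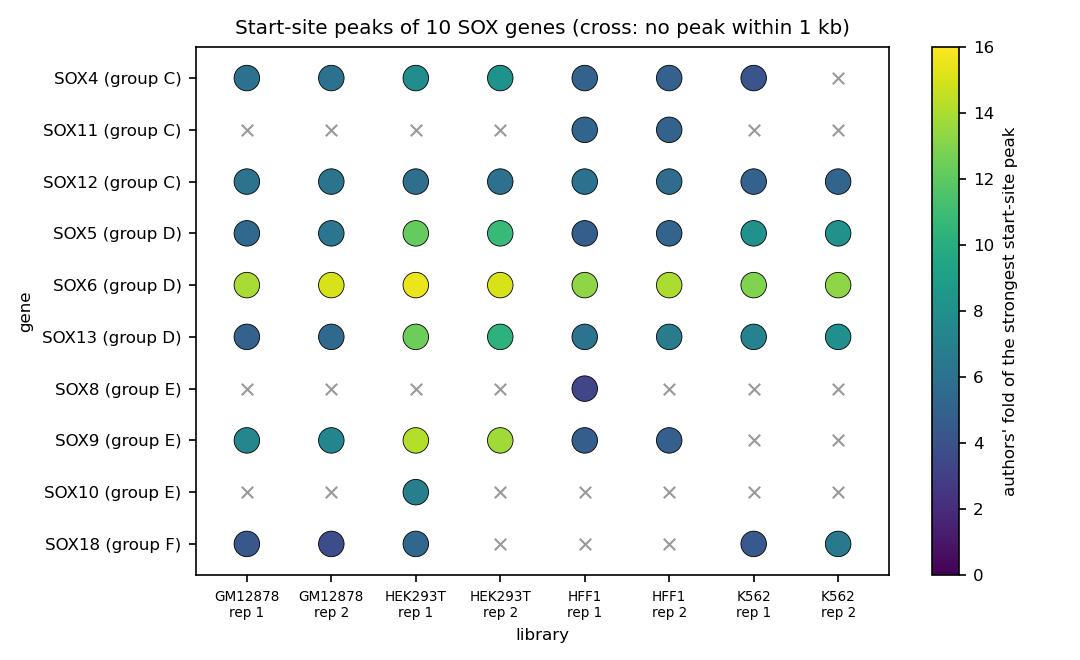
Authors' fold of the strongest peak within 1 kb of a start site (colour) for each SOX gene (rows) in each of the 8 human libraries (columns). Crosses mark libraries without such a peak: SOX11 has one only in HFF1, SOX9 has none in K562, and SOX8 and SOX10 each have 1 in a single library.

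Among the group C genes, SOX4, an activator in lymphoid and other progenitors (chr6:21593751-21598619, hg38, plus strand), had start-site peaks in 7 of 8 libraries. The folds were 6.02 and 6.05 in GM12878, 7.85 and 8.08 in HEK293T, 4.96 and 4.90 in HFF1, and 4.21 in replicate 1 of K562. The summit of the K562 peak lay 817 bp downstream of the start, and 93.1% of the peaks of that list were stronger. The strongest summits of the other 6 libraries lay within 113 bp of the start. GM12878 also had a second peak, which began 0.67 and 0.708 kb downstream of the start, so the place of the K562 peak was not particular to K562. K562 replicate 2 had no peak there, so SOX4 was not called in K562.

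SOX11, which acts in neuronal progenitors (chr2:5692384-5701385, plus strand), was called in HFF1 alone. Its folds there were 5.17 and 4.94, with recovered pileups of 83 and 63 reads at summits 109 and 99 bp upstream of the start. None of the other 6 libraries had a peak at the start. SOX12, the third member of the group (chr20:325552-330224, plus strand), had folds of 6.10 and 6.14 in GM12878, 5.80 and 5.88 in HEK293T, 6.03 and 5.58 in HFF1, and 5.04 and 5.18 in K562. All 8 libraries had a peak, and in 6 of them the strongest one was 1018 to 1048 bp upstream of the SOX12 start. The start of NRSN2-AS1, a long noncoding RNA, lies 283 bp from the SOX12 start. That of LINC01248, also a long noncoding RNA, lies 896 bp from the SOX11 start. Peaks at such shared sites, the HFF1 peaks at SOX11 included, cannot be assigned to 1 gene.

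Group D holds long genes with several start sites. SOX5 and SOX6 act together with SOX9 in cartilage, and SOX13 is known from T cell lineages. SOX5 (chr12:23529504-24562544, minus strand) has 9 groups of start sites. Peaks at the first group were called in HEK293T, with folds of 7.41 and 8.00, and in HFF1, with 4.72 and 5.09. In GM12878 and K562 the first group had a peak in replicate 2 only, with folds of 4.76 and 5.73. The fourth group lies 612 kb further along the gene, and there the pattern was the other way for HFF1: it had no peak in either HFF1 library, with folds of 5.39 and 6.20 in GM12878, 12.2 and 10.8 in HEK293T, and 8.06 and 8.03 in K562. HEK293T was thus the one line with calls at both, and the lines differed in which SOX5 starts were called although the gene was called in all 4. For GM12878 and K562 the missing call at the first group rests on replicate 1 alone. Both GM12878 peaks at the fourth group were lost when pileups were thinned to the background level of HEK293T.

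SOX6 (chr11:15966449-16739591, minus strand) has 13 groups of start sites and had the highest start-site fold of the 10 genes in every library. Its folds at the first group were 13.9 and 15.0 in GM12878, 15.5 and 15.0 in HEK293T, 13.3 and 14.0 in HFF1, and 12.9 and 13.3 in K562. Between 0.544% and 4.59% of the peaks of each list were stronger. This peak did not reach the first SOX6 start in any library but covered the other start of the group, at position 16738643. It also covered the start of C11orf58, a gene read in the opposite direction, so the peak is not SOX6's alone. The C11orf58 start, at position 16738659, lies 932 bp from the first SOX6 start. The second group, 132 kb along the gene, was also called in all 4 lines. The fifth group, at 331 kb, is the CpG-free start printed above and was called only in K562, with folds of 8.72 and 7.01 and pileups of 34 and 24 reads. A start at 487 kb was called in HFF1 only, with folds of 4.95 and 5.23, but single replicates of HEK293T (6.14) and K562 (4.68) had a peak there too.

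SOX13 (chr1:204073115-204127743, plus strand) was called at its first start group in all 4 lines. The folds were 4.88 and 5.34 in GM12878, 12.4 and 10.3 in HEK293T, 6.12 and 6.62 in HFF1, and 7.01 and 7.92 in K562. Within its own list the GM12878 peak was weak, with 83.2% and 74.3% of peaks stronger, while 18.3% and 23.2% were stronger in HEK293T. A long noncoding RNA starts 850 bp from the first SOX13 start, so these start-site peaks cannot be assigned to SOX13 alone.

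**Figure D2:**
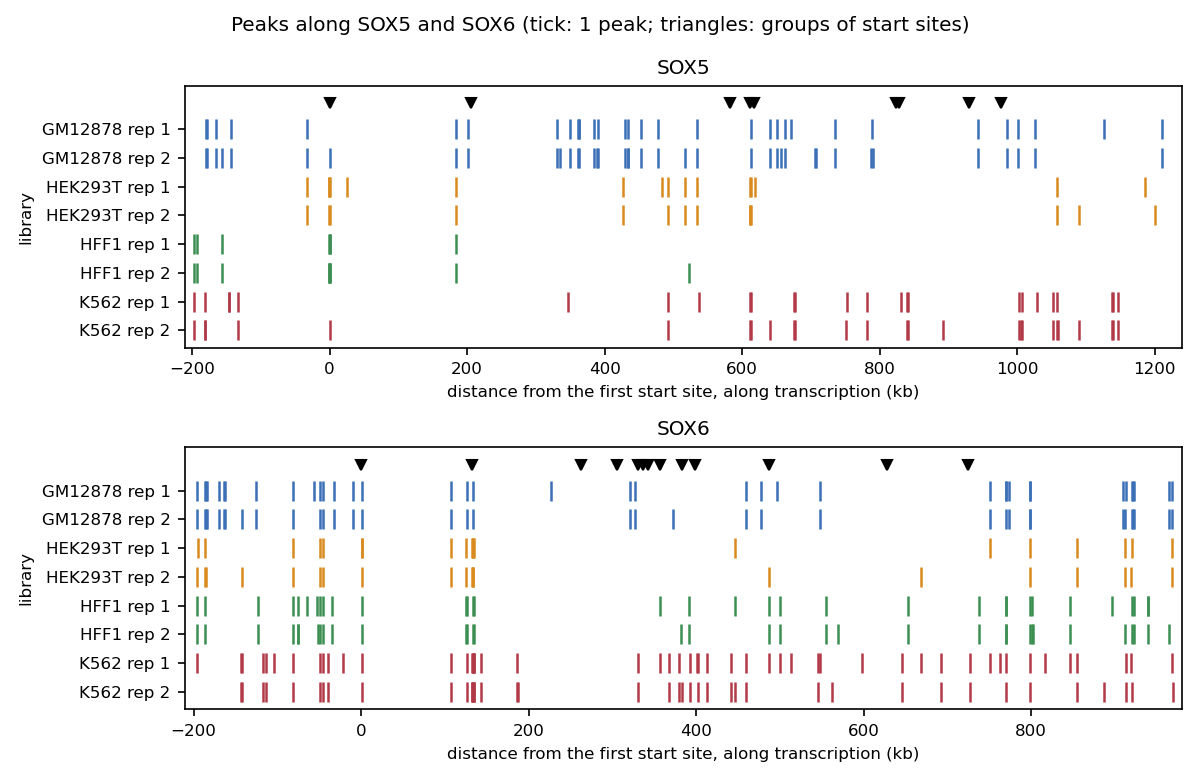
Peaks along SOX5 and SOX6 by distance from the first start site in kb (horizontal axis) in the 8 human libraries (rows); triangles mark groups of start sites. In SOX5 the start group at 612 kb has ticks in GM12878, HEK293T and K562 and none in HFF1, and in SOX6 the start at 331 kb has ticks in K562 only.

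Among the group E genes, SOX9, which directs cartilage and testis development (chr17:72121020-72126416, plus strand), was called in 3 lines. The folds were 7.32 and 7.31 in GM12878, 14.2 and 13.7 in HEK293T, and 4.70 and 4.79 in HFF1. Neither K562 library had a peak. The summits lay 65 to 100 bp upstream of the start in GM12878 and HEK293T, whereas the strongest HFF1 peaks had summits 761 and 508 bp downstream. Both HFF1 libraries also had a weaker peak over the start itself, so the start was covered by a peak in all 3 lines. The long noncoding RNA SOX9-AS1 starts 210 bp from the SOX9 start, so these peaks cannot be assigned to SOX9 alone. SOX8 (chr16:981770-986979, plus strand) had 1 peak, in HFF1 replicate 1, with a fold of 3.36. LMF1 starts 452 bp from the first SOX8 start and the long noncoding RNA CEROX1 174 bp from it. SOX10, a gene of neural crest and glia (chr22:37970686-37987422, minus strand), had 1 peak, in HEK293T replicate 1, with a fold of 6.83 and a pileup of 9 reads. Neither gene was called in any line.

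SOX18 of group F (chr20:64047582-64049639, minus strand) was called in GM12878, with folds of 4.34 and 3.69, and in K562, with 4.38 and 6.44. HEK293T had a peak in replicate 1 only, at 5.28, and HFF1 had none. The strongest summits were not the same site: they lay 388 and 391 bp downstream of the start in GM12878 and 1063 and 1064 bp upstream in K562. Both K562 libraries also had a weaker peak over the SOX18 start itself, and no library of another line did. The start of TCEA2 lies 197 bp from that of SOX18, so these peaks cannot be assigned to SOX18 alone.

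The surroundings of SOX9 and SOX11 were without peaks in K562. Around the SOX9 start, neither K562 library had a peak over 2.37 Mb (chr17:70169881-72540278), a span in which SOX9 is the only protein-coding gene. The other libraries had 69 and 67 peaks there in GM12878, 33 and 34 in HEK293T, and 88 and 68 in HFF1. The span was chosen for the absence of K562 peaks, so these numbers are a description. Around SOX11, the span without a K562 peak was 1.41 Mb (chr2:5366172-6773019), where GM12878 had 9 and 10 peaks, HEK293T 7 and 8, and HFF1 37 and 29. GM12878 had no peak over 738 kb around SOX11 (chr2:5366192-6104012), where HFF1 had 15 and 10 and HEK293T 4 and 4. Of all protein-coding genes, 3.14% had their first start in a span of at least 500 kb without a K562 peak and 1.46% in such a span without a GM12878 peak. Copy number and read mappability in these spans were not tested.

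**Figure D3:**
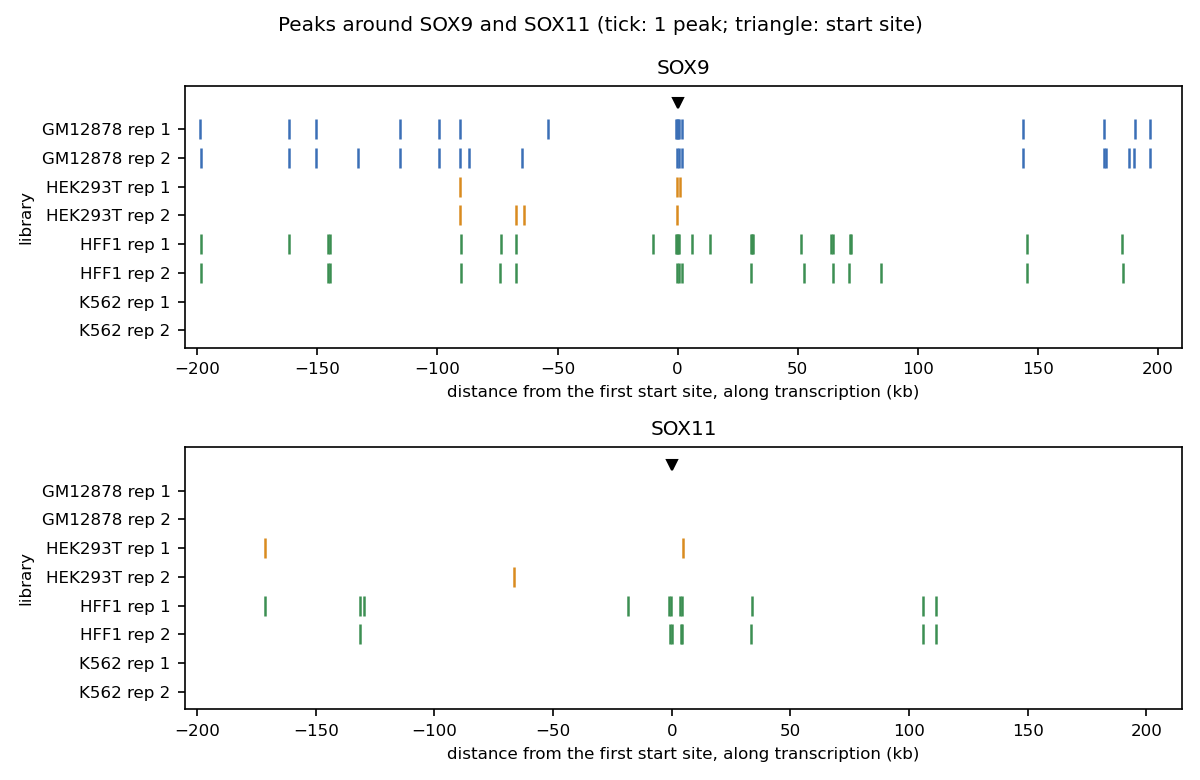
Peaks within 200 kb of SOX9 and SOX11 by distance from the start site in kb (horizontal axis) in the 8 human libraries (rows); each tick is 1 peak. The K562 rows are empty for both genes and the GM12878 rows are empty for SOX11, where HFF1 has 11 and 8 peaks.

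Peak numbers were then counted over each gene body with 200 kb on either side. The 4 lines were compared by eta squared, the part of the variance that lies between them, in an exact one-sided permutation test over every way of splitting 8 libraries into pairs, whose smallest p is 0.00952, with Benjamini-Hochberg adjustment over 19940 genes. Of the 10 SOX genes, 8 passed an adjusted p of 0.05, and so did 78.5% of all genes tested. The share is near that of all genes, and list lengths and depth differ between lines, so the count says nothing particular to SOX genes. With the 50000 strongest peaks of each library, 0.0% of genes and none of the 10 passed, and the smallest adjusted p was 0.0525. At an unadjusted p under 0.05, 11843 genes and 7 of the 10 passed that test. With pileups thinned to the background level of HEK293T, which left 46857 to 84128 peaks per library, 58.7% of genes and 8 of the 10 passed, SOX9 and SOX12 in place of SOX4 and SOX6. With peaks per 10000 peaks of the library, which scales list length, 61.2% of genes and 7 of the 10 passed. Without K562 replicate 1 or without K562 replicate 2, 5 of the 10 passed, against 66.8% and 65.4% of genes.

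SOX5 had 32 and 39 peaks in GM12878, 16 and 14 in HEK293T, 7 and 9 in HFF1, and 25 and 26 in K562 (eta squared 0.968, adjusted p = 0.0265 by the exact permutation test). GM12878 was highest and HFF1 lowest, without overlap. Per 10000 peaks of the library no line was highest without overlap and SOX5 did not pass (adjusted p = 0.0667, exact test). A number lowest in HFF1 was found for 2.11% of genes and one highest in GM12878 for 21.4%. HFF1 was the line with the longest lists, and among the 50000 strongest peaks of each library it had 0 and 0 at SOX5, with 11 and 12 in GM12878, 14 and 14 in HEK293T, and 9 and 12 in K562. There HEK293T became the highest line, as it was for SOX4 and for 8.46% of genes.

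SOX6 had 38 and 36 peaks in GM12878, 20 and 20 in HEK293T, 33 and 34 in HFF1, and 51 and 42 in K562 (eta squared 0.944, adjusted p = 0.0265 by the exact test). K562 was highest without overlap, as for 6.13% of genes. Among the strongest peaks K562 had 28 and 23 against 10 to 19 elsewhere, and in those shorter lists it was highest for 26.1% of genes. After thinning, K562 had 30 and 23 and overlapped GM12878 with 30 and 28, and the gene no longer passed (adjusted p = 0.213, exact test). It also missed the threshold without HFF1 replicate 1 (0.0624) or replicate 2 (0.052).

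HFF1 was highest without overlap for SOX4, SOX11, SOX13, SOX8 and SOX10, and for 41.2% of all genes. SOX13 had 44 and 40 peaks in HFF1, 20 and 18 in GM12878, 9 and 9 in HEK293T, and 16 and 15 in K562. HFF1 stayed highest in the strongest peaks, where HFF1 had 16 and 17 and the other lines 6 to 9, and after thinning, where HFF1 had 29 and 27 and the others 8 to 13, while the order of the other 3 lines changed. HFF1 was highest among the strongest peaks for 12.8% of genes. SOX10 also kept HFF1 highest under both settings, but per 10000 peaks of the library it had no highest line and did not pass (adjusted p = 0.429, exact test). It also lost its call without either HFF1 or either K562 library (adjusted p of 0.052 to 0.0541, exact test). SOX8 did not keep HFF1 among the strongest peaks, where K562 had 12 and 12 and HFF1 10 and 11, nor per 10000 peaks, where K562 was highest.

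SOX4 had 26 and 24 peaks in HFF1, 19 and 18 in GM12878, 10 and 10 in HEK293T, and 5 and 5 in K562. K562 was lowest without overlap for SOX4 and SOX9, as for 6.08% of genes. SOX9 had 16 and 18 peaks in GM12878, 3 and 4 in HEK293T, 24 and 16 in HFF1, and 0 and 0 in K562, and did not pass the test (eta squared 0.944, adjusted p = 0.0577, exact test). It passed without HFF1 replicate 1 (0.0427) or replicate 2 (0.029). SOX11 had 11 and 8 in HFF1, 2 and 1 in HEK293T, and none in GM12878 or K562 (adjusted p = 0.0379, exact test). It did not pass without either GM12878 or either K562 library (0.0699 to 0.0727). No peak in the window was found in either K562 library for 1.15% of genes, SOX9 and SOX11 among them, and in either GM12878 library for 0.632%, SOX11 among them.

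SOX12 was the other gene that did not pass (adjusted p = 0.121, exact test), with 29 and 29 peaks in GM12878, 19 and 19 in HEK293T, 30 and 28 in HFF1, and 29 and 32 in K562. Its 3 deeper lines overlapped. SOX18 had 47 and 50 in GM12878, 17 and 16 in HEK293T, 44 and 36 in HFF1, and 41 and 30 in K562 (adjusted p = 0.0486, exact test). It did not pass without any 1 of the 8 libraries (adjusted p of 0.0533 to 0.091, exact test) or per 10000 peaks (0.103). HEK293T was highest for none of the 10 genes in the full lists, and for 0.792% of all genes.

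**Figure D4:**
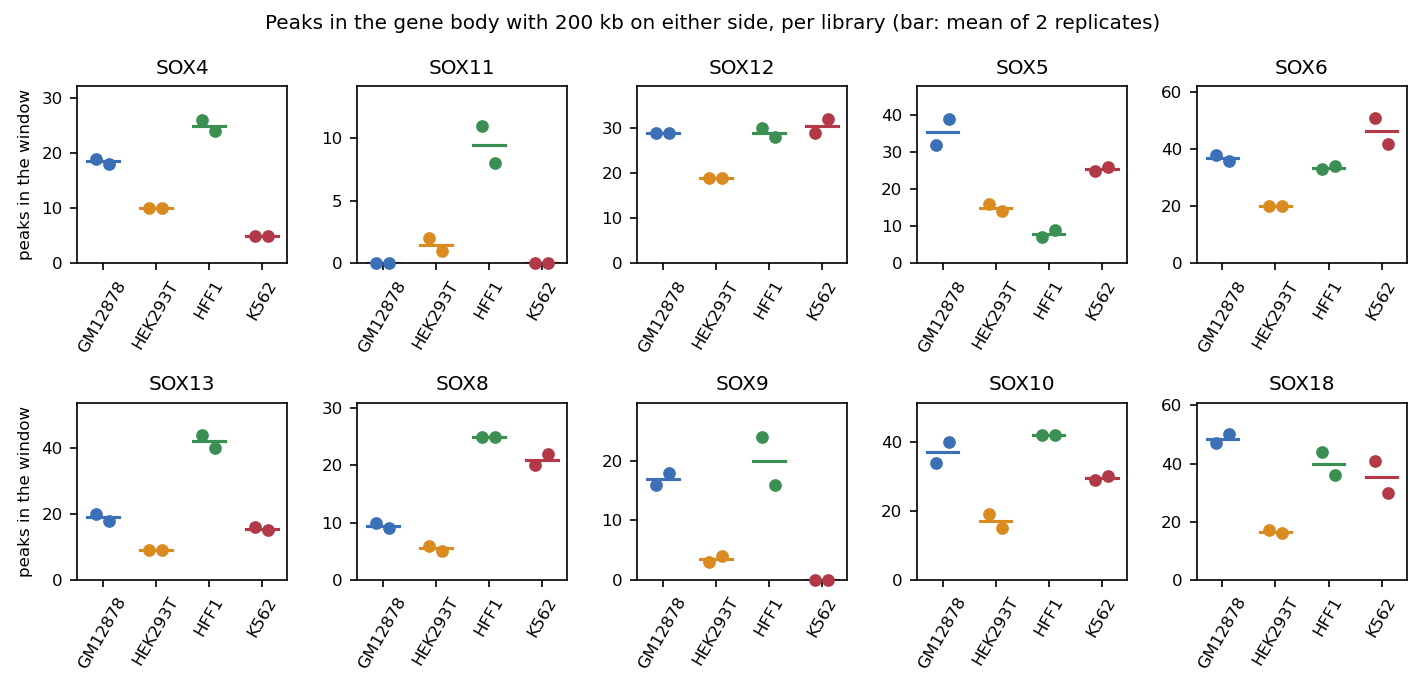
Number of peaks in each gene body with 200 kb on either side (vertical axis, from 0) in the 4 human lines; points are libraries and bars the mean of 2 replicates. SOX5 is lowest in HFF1, SOX6 highest in K562, SOX13 highest in HFF1, and SOX9 has 0 peaks in K562.

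Peaks of the 8 libraries were merged into regions, and a region was specific to a line when it was called there and no library of another line had a peak in it. The 10 windows held 582 regions, of which 408 were called in at least 1 line. Of the regions called in GM12878, 91 of 214 (42.5%) were specific to it, against 40.6% over the genome. The values were 97 of 218 in HFF1 (44.5% against 50.5%), 51 of 166 in K562 (30.7% against 25.4%) and 5 of 86 in HEK293T (5.81% against 10.8%). Single genes lay far apart. With the 50000 strongest peaks of each library, 29 regions were specific to GM12878, 13 to HEK293T, 32 to HFF1 and 32 to K562, so the low number of HEK293T moved with list length. After thinning to the HEK293T background level, 58 were specific to GM12878, 7 to HEK293T, 50 to HFF1 and 27 to K562, and HEK293T stayed lowest under both settings. Judged by 1 library alone, the specific regions numbered 148 for HFF1 without its replicate 2, 82 for K562 without its replicate 2, and 11 and 15 for HEK293T without replicate 1 or 2.

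At SOX5, 25 of 28 GM12878 regions and 13 of 18 K562 regions were specific, and 20 of the 25 lay inside the SOX5 gene. At SOX6, K562 had 19 specific regions of 35, with 15 inside the gene, and HFF1 had 13 of 28. HFF1 held 19 of 31 at SOX13, 8 of 11 at SOX9, 7 of 8 at SOX11 and 11 of 19 at SOX4. This was not particular to HFF1 at SOX9, where GM12878 held 7 of 11 and HEK293T 0 of 2. At SOX4, GM12878 held 8 of 14, HEK293T 3 of 7 and K562 1 of 3. SOX12 stood at the other end, with 15 of 36 called regions (41.7%) shared by all 4 lines, against 11.6% over the genome. Of the regions in its window, 42.5% lay at start sites of protein-coding genes, against 14.1% over the genome. The SOX12 window holds 12 other protein-coding genes, whereas those of SOX4, SOX11, SOX5 and SOX9 hold none.

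**Figure D5:**
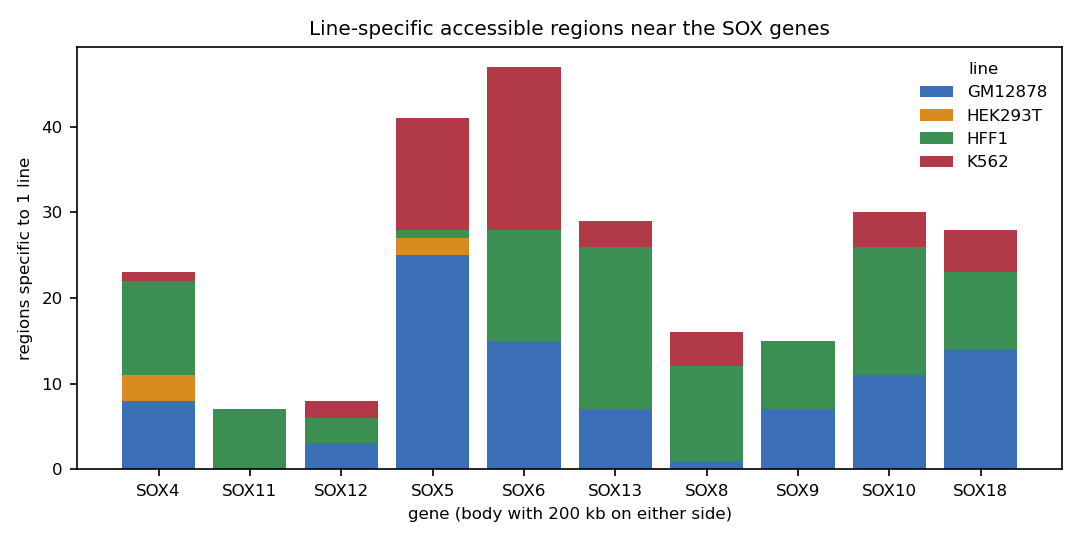
Number of regions specific to 1 line (vertical axis) in the window of each SOX gene, stacked by line. GM12878 makes up 25 of the SOX5 regions, K562 19 of the SOX6 regions and HFF1 19 of the SOX13 regions.

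Of the 6 best-ranked line-specific regions away from every start site, 4 are shown by the hg38 bases within 100 of the summit, since they are the sites by which the lines differ. The SOX4 region lay 155 kb upstream of the SOX4 start, with folds of 14.5 and 14.2 in GM12878. The SOX9 region lay 145 kb upstream, with 10.9 and 12.2 in HFF1. The SOX13 region lay 160 kb downstream of the SOX13 start inside PLEKHA6, with 18.4 and 15.7 in HFF1. Each of those at SOX4, SOX9 and SOX13 held 1 match to the AP-1 letters TGACTCA, given in capitals. The SOX5 region lay in an intron of SOX5, 434 kb from the first start, with 12.5 and 14.7 in GM12878. The SOX6 region of HFF1, 738 kb along the gene with folds of 12.1 and 12.2, ranked ahead of the SOX13 one, and the SOX18 region of GM12878 ahead of the SOX5 one. The regions at SOX5, SOX6 and SOX18 held no match to any of the 7 motifs searched. None of the 6 regions overlapped an annotated exon, and which gene a region acts on was not tested.
SOX4 region of GM12878, chr6:21438638-21438838, plus strand: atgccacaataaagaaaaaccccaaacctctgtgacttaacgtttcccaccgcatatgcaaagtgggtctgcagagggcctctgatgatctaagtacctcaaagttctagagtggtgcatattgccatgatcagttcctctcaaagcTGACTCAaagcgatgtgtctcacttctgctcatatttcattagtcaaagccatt
SOX9 region of HFF1, chr17:71976114-71976314, plus strand: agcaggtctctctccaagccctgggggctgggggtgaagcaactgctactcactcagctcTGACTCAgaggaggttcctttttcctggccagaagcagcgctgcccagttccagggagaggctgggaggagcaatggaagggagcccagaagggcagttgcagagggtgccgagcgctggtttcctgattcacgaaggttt
SOX13 region of HFF1, chr1:204232611-204232811, plus strand: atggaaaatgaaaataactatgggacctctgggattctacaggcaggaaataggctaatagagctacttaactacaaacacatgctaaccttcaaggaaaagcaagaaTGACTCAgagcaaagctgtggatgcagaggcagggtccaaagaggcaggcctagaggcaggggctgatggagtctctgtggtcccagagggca
SOX5 region of GM12878, chr12:24128511-24128711, plus strand: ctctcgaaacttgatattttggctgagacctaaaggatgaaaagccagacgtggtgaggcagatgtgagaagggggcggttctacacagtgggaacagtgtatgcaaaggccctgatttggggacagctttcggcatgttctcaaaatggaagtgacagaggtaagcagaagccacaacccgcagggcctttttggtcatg

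Motif letters were searched on both strands in windows of that length over all line-specific regions outside start sites. Near the SOX genes, the GATA letters AGATAA were in 18 of 41 K562-specific regions (43.9%), against 32.2% of all K562-specific regions. The SOX letters AACAAT were in 6 of the 41 (14.6% against 5.93%) and ACAAAG in 11 (26.8% against 14.6%). In GM12878-specific regions they were in 5 of 74 (6.76% against 11.4%) and 13 (17.6% against 17.0%), and in HFF1-specific ones in 10 of 76 (13.2% against 12.4%) and 13 (17.1% against 16.4%). The AP-1 letters were in 23 of 76 HFF1-specific regions (30.3% against 24.4%) and in 16 of 74 GM12878-specific ones (21.6% against 12.5%). The TEAD letters GGAATG were in 18 of the 76 (23.7% against 20.7%), and the RUNX letters TGTGGTT in 9 of the 74 (12.2% against 11.6%). Median GC of the K562-specific regions was 45.3% near SOX genes and 50.2% over all. These are matches of letters, and no binding was measured.

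In mESC, 9 of the 10 orthologues had a start-site peak in both libraries, against 73.1% of mouse protein-coding genes. Sox11, called only in HFF1 among the human lines, had folds of 7.56 and 6.94. Sox8, called in no human line, had 9.90 and 9.58, and Sox9 had 5.15 and 5.34. Sox10 had a peak in replicate 1 only, at 3.01. The mESC lists were longer than every human list, with 138349 and 142194 peaks, and their background levels of 2.91 and 2.86 were higher. The mouse and human lists were not tested against each other.

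Genes on which these factors are known to act were read the same way, beside the 71.9%, 67.8%, 76.2% and 70.4% of all genes called in GM12878, HEK293T, HFF1 and K562. In the lists of cartilage, endothelial, neuronal and other SOX genes, the counts below are small and were not tested. Of 9 cartilage genes, 3 were called in GM12878, 3 in HEK293T, 5 in HFF1 and 2 in K562. COL11A2 and MATN3 were called in HFF1 only, COL9A1 in K562 only, ACAN in HEK293T only and COMP in GM12878 only. MATN3 also had a peak in replicate 1 of HEK293T, and ACAN and COL9A1 each had one in replicate 1 of HFF1. Of 5 endothelial genes, 1, 2, 4 and 2 were called in the same order of lines, CLDN5 in HFF1 only. Of 5 neuronal and Hippo genes, 3 were called in each line, NEUROD1 in HEK293T only. Among 7 SOX genes of other groups, 2, 3, 4 and 2 were called, SOX3 in HEK293T only.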

How the data were processed

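ATAC-seq was measured in 10 libraries, 2 for each of 5 cell lines, grouped by their labels. The authors deposited 1 peak list per library, so replicates were not pooled. Each deposited peak has a fold (a ratio of summit to local background), −log10 p and q values and a score. The submitters' processing notes name cutadapt 3.2, Bowtie2 2.4.2, Picard, MACS2 2.2.7.1, hg38 and mm10, without roles. Whether reads were shifted for Tn5 is not given in the sources used here. No human peak passed a chromosome end of hg38.

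From the deposited values a whole-number pileup was solved for 100% of peaks (within 0.002 of the deposited −log10 p), and pileups were thinned to the lowest background level as 1 alternative. Windows of 200 kb, start-site distances of 1 kb and GENCODE 44 (human) and M21 (mouse) were used, with pandas 2.3.3, numpy 2.4.6, scipy 1.17.1 and pysam 0.24.0. The exact test over pairings was tested on simulated data of 19178 genes. At an unadjusted p under 0.05 it recovered 100.0% of 200 genes whose 4 lines all differed, but 28.0% of 200 genes with only 1 line changed 4-fold. A change in 1 line alone is therefore often missed, since 15 of the possible pairings keep that line's libraries together and score about as well. Of unchanged genes, 3.68% and 3.95% passed an unadjusted p of 0.05. The adjusted threshold used for the real genes was not applied to the simulated ones.

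All 10 genes are named, and for each gene and line the line-specific region of best mean rank, of which the text gives some of the best ranked. A list of neural crest and glial genes is not reported here. The members and lists were chosen with earlier results of these data known. The labels do not say that replicates are separate cultures, so p-values measure only the spread between libraries, which may be technical. Reads carried no molecular identifiers, so pileups do not count independent molecules. Deviations of same-numbered replicates correlated between -0.0221 and 0.0125 over 6 pairs of lines, so the numbers were not taken to pair samples.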

Additional observations from a re-analysis of the deposited data

How the results depend on the processing

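Of the comparisons of counts, 130 alternatives stayed within 1.5 times the main value and 30 did not. These are counts and have no direction, but the line with the most peaks did change at single genes. With the 50000 strongest peaks it became HEK293T at SOX4 and SOX5 and K562 at SOX8. The between-line test on peak numbers called 0 genes and 0 SOX genes with the 50000 strongest peaks, with the gene body and 1 kb, with the replicate block and with HEK293T, HFF1 and K562 only. At an unadjusted p under 0.05 these called 11843, 5359, 9242 and 0 genes, and 7, 3, 7 and 0 SOX genes; with 3 lines the smallest p is 0.0667. The replicate block has 24 pairings, a smallest p of 0.0417 and a lowest adjusted p of 0.0899. Leaving out 1 library gave 5 to 7 SOX genes, with 5 without either K562 library. Of 8 genes with 1 line highest, 3 kept that line among the strongest peaks, 3 in the gene body with 1 kb, 4 with peaks per 10000 peaks of the library, 6 after thinning and 8 without each single library.

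Start-site calls in GM12878 fell to 4 with the 50000 strongest peaks. Regions called were 36.2, 14.6, 36.9 and 28.1 per Mb of the windows in GM12878, HEK293T, HFF1 and K562 and became 16.4, 14.0, 17.1 and 17.8 with those peaks, where K562 was highest, and specific regions 29 in GM12878, 13 in HEK293T, 32 in HFF1 and 32 in K562. Thinning left 22.8 regions per Mb in HFF1 and 14.7 in K562. Of the thinned regions, 58 were specific to GM12878, 7 to HEK293T, 50 to HFF1 and 27 to K562. With 100 kb on either side, 133, 132 and 106 regions were called in GM12878, HFF1 and K562 (34.0, 33.8 and 27.1 per Mb), and 54 were specific to GM12878, 3 to HEK293T and 52 to HFF1. Leaving out 1 library gave 91 to 114 specific regions in GM12878, 5 to 15 in HEK293T (11 and 15 without its own replicates), 97 to 148 in HFF1 (148 without replicate 2) and 51 to 82 in K562 (82 without replicate 2). The smaller windows and shorter lists hold fewer peaks by construction. The lower depth of HEK293T limits what its lists can show.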
